A study of Mus musculus with 4 samples.

Results

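The dystrophin glycoprotein complex was followed through 9 of its genes, Dmd, Utrn, Dag1, Sgca, Sgcb, Sgcd, Sntb1, Dtna and Sspn. They were taken by symbol from the 23337 gene symbols listed for each of 4 RNA-seq libraries of mouse heart. All 9 were found in every library, and all 9 passed every filter on low values. The mice were C57BL6/J, untreated, and each library held RNA pooled from 5 hearts of males and females. The controls were PIMTfl/fl mice at 2 and at 6 months of age. In them exons 3 and 4 of Tgs1, which encodes the RNA cap methyltransferase PIMT, lie between loxP sites. The csPIMT-/- mice of 2 and 6 months carried the same floxed alleles together with a Cre recombinase under the α-myosin heavy chain promoter. That promoter removes the exons in cardiomyocytes, so the other cells of these hearts still carried the intact gene. Each group was 1 pooled library, and no difference between groups had a replicate check.

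Dystrophin ties the actin cytoskeleton of a muscle cell to β-dystroglycan in the surface membrane, and α-dystroglycan binds laminin outside the cell. The sarcoglycans and sarcospan form a unit in the membrane that sits beside dystroglycan, while the syntrophins and dystrobrevins bind dystrophin on the inner side. Loss of dystrophin or of some, but not all, of the sarcoglycans causes muscular dystrophy with cardiomyopathy in humans and in mice. Utrophin, the autosomal relative of dystrophin, can take the place of dystrophin in the complex.

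The deposited values are normalized counts, that is, reads on a gene divided by a size factor of the library. The libraries held 29823073 to 40705783 reads on genes. Tgs1 had 579.75 and 816.2 normalized counts in the younger and the older control and 160.3 and 162.3 in the csPIMT-/- libraries. Values are given here and below in the order of age. The targeted gene was thus lower in both libraries that carry its deletion, with ratios of 0.276 and 0.199. Its transcript has 41.9% GC, and all genes below 42% GC had median ratios of 0.346 and 0.319. With the trend on transcript GC described below subtracted, the ratios of Tgs1 were 0.646 and 0.529. How much of its lower level came from the deletion was not tested. All 7 cardiomyocyte markers (Myh6, Actc1, Tnnt2, Tnni3, Myl2, Myl3 and Pln) were present. The sum of their levels was 1193310 to 1297810 in the controls and 1024910 to 1366690 in the csPIMT-/- libraries. At 2 months 3 of the 7 had ratios below 1 and 4 above, from 0.389 to 1.49. At 6 months 4 were below 1 and 3 above, from 0.257 to 1.43. In the test described below 1 of the 7 was called lower and none higher. Markers of other tissues and cells differed between the pools. At 2 months all 4 atrial markers were higher in the csPIMT-/- library, with ratios of 5.27 (Nppa) to 97.3 (Sln), while at 6 months 3 of 4 were lower, down to 0.421 (Sln), and Nppa was 4.53 times as high. Their summed level was 40737 and 114957 in the controls and 325567 and 348345 in the csPIMT-/- libraries, mostly Nppa. The paper uses Nppa RNA as an indicator of heart failure and reports it raised in csPIMT-/- hearts from 2 to 6 months. The sum was thus not a measure of atrial tissue alone. Among 6 skeletal muscle markers compared, 3 were lower at 2 months (median ratio 0.543) and all 6 higher at 6 months (4.07), and nearly all of the summed level (23271 and 24381 against 122274 and 94526) was Acta1. Of 5 smooth muscle markers, 4 were higher at 2 months (median 2.57) and 3 lower at 6 months (0.831), with Des, also a muscle gene, at 2.50 and 4.39. Their summed level was 111500 and 97273 against 216099 and 296722, most of it Des, with 61588 and 61406 against 153812 and 269499. The summed level of 5 macrophage markers was 8636 and 18290 against 25460 and 34970. In the test described below 4 of the 5 were called higher and none lower, where 11.0% of all genes were called higher. All 5 were also higher in the older control than in the younger. That of 5 lung markers was 1.73 and 8.79 against 1160 and 17.7, and that of 4 brown fat markers 1906 and 1902 against 7741 and 3046. The csPIMT-/- pool of 2 months had the highest sum in both. Taken singly, 3 of the 4 brown fat markers were also more than 2-fold higher in the older control than in the younger, up to 98.6 times. At 6 months 3 of the 4 were lower in the csPIMT-/- library, down to a ratio of 0.134. No marker of these lists was at 0 in all libraries. Xist, expressed from the inactive X chromosome, had 804.7 and 25639 normalized counts in the controls and 6369 and 12856 in the csPIMT-/- libraries, and the Y-linked gene Uty had 2254, 299.9, 87.5 and 170.6 in the same order. The share of female and male RNA therefore differed between the controls and between the pools of 2 months, although all are labelled as mixed. At 6 months all 5 sex-linked genes compared were lower in the csPIMT-/- library, with ratios of 0.407 to 0.691. A difference in that share was not shown for this pair. The part of these differences in the results below was not tested. In bulk RNA of whole hearts, fewer cells of a type and less RNA per cell cannot be told apart.

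At both ages the ratio of csPIMT-/- over PIMTfl/fl lay below 1 for 7 of the 9 genes and above 1 for Dag1 and Sgca. Of the 7, 6 passed the test described below and Sgcd did not, and neither did Dag1 or Sgca. Dmd had the lowest ratio at both ages, 0.227 at 2 months and 0.195 at 6 months. The highest ratios were those of Sgca at 2 months, 1.86, and of Dag1 at 6 months, 1.30. The summed level of the 9 genes was 68418 and 83806 normalized counts in the controls, against 42267 and 49146 in csPIMT-/- hearts.

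A ratio below 0.5 was found for 4 of the 9 genes at 2 months (Dmd, Sgcb, Sntb1 and Sspn), where 22.5% of the 15152 genes compared lay below 0.5. At 6 months 6 of the 9 lay below 0.5 (Dmd, Sgcb, Sgcd, Sntb1, Dtna and Sspn), against 24.9% of 15218 genes. None of the 9 lay above 2, where 17.3% of all genes stood at 2 months and 16.9% at 6 months. The median ratio of the 9 genes was 0.511 at 2 months and 0.443 at 6 months, beside 0.999 and 1.003 over all genes. After the trend of the ratio on the GC content of transcripts was subtracted, the medians became 0.822 and 0.783, and no gene of the 9 stayed below 0.5 at either age. In all 9 genes the csPIMT-/- libraries did not overlap with the controls, with 7 below both controls and 2 above both. That is common in these libraries, since 35.9% of 14847 genes lay below both controls and 35.2% above both.

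Over both ages, limma with genotype and age as terms called 6 of the 9 genes lower in csPIMT-/- hearts (Dmd, Sspn, Sntb1, Sgcb, Dtna and Utrn) and none higher. Of all 14847 genes tested, 17.5% were called lower and 11.0% higher at an adjusted p below 0.05. The fit had 1 residual degree of freedom and borrowed the rest of its variance from other genes. With the GC trend subtracted it called none of the 9 genes and none of all genes, although 1685 genes were lower and 1868 higher at an unadjusted p below 0.05. It also called none without the mean trend of the variance.

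**Figure D1:**
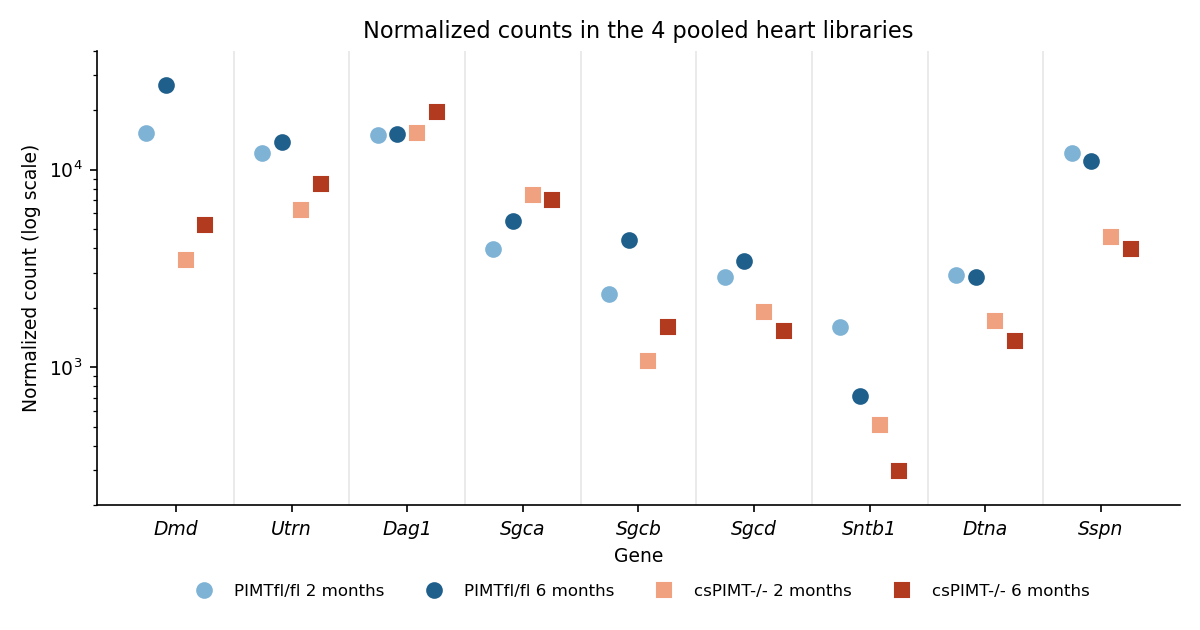
Normalized counts of the 9 genes on a log axis, with circles for the 2 PIMTfl/fl libraries, squares for the 2 csPIMT-/- libraries and darker shades for 6 months. Each point is 1 pooled library, without an error bar. Dmd stands at 15399 and 26879 in the controls and at 3492 and 5254 in the csPIMT-/- libraries, while the squares of Dag1 and Sgca lie above the circles.

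Dmd encodes dystrophin, the rod that links actin to the membrane. It had 15399 normalized counts in the PIMTfl/fl library of 2 months, 26879 in that of 6 months, 3492 in the csPIMT-/- library of 2 months and 5254 in that of 6 months. Both csPIMT-/- libraries lay far below both controls. The ratio was 0.227 at 2 months (95% Clopper-Pearson interval 0.218 to 0.236) and 0.195 at 6 months (0.190 to 0.201). These intervals, like all others given here, cover the counting error of the reads alone and hold nothing of the spread between mice or pools. In the limma fit Dmd fell by 2.25 on the log2 scale (SE 0.20, adjusted p = 0.0163, lower in 2 of 2 ages). It was called lower in 12 of 14 alternative fits, with adjusted p between 6.97e-12 and 0.123, and in each of the 4 fits that left out 1 library. Those fits had no age term and left 1 genotype with a single library, whose spread was assumed to be that of the other genotype. Subtracting the GC trend brought its ratios to 0.553 and 0.539, and subtracting the trend on transcript length to 0.397 and 0.328. Dmd is X-linked, and Xist and the Y-linked genes differed between the pools as given above.

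Dmd lies at chrX:82948870-85206141 on the plus strand of GRCm38. RefSeq gives it 2 starts with promoter sequence, the start of the full-length gene and a second start inside the gene from which shorter transcripts begin. The files hold 1 value per gene, so transcripts from these starts were not separated. The 250 bases before each start are shown because Dmd had the lowest ratio of the complex, with the CArG box, the motif of serum response factor in many muscle promoters, in capitals.
Dmd, start of the full-length gene, chrX:82948620-82948869, plus strand: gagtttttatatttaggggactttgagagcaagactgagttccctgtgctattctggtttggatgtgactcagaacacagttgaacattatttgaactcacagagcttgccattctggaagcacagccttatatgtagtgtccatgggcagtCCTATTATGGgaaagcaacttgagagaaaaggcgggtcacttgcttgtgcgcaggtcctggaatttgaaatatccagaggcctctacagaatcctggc
Dmd, second start, chrX:85048045-85048294, plus strand: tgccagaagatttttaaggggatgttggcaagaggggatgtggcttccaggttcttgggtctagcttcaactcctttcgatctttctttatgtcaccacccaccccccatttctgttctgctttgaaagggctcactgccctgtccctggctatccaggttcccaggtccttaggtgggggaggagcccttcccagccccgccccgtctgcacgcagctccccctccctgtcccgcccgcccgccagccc
The promoter of the full-length gene held 1 CArG box, which was found on either strand in 1.47% of 32851 RefSeq promoter windows of the same length, and 1 TATAAA, found in 12.4%. It was poor in GC, at 45.2%, with 24.5% of promoter windows lower, whereas the window of the second start had 60% GC and no CArG box. A match of letters is a description and no evidence of binding.

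Utrn, the utrophin gene, lies at chr10:12382188-12869365 on the minus strand. It had 12170 and 13856 normalized counts in the controls and 6224 and 8464 in the csPIMT-/- libraries, both below both controls. The ratio was 0.511 (0.495 to 0.528) at 2 months and 0.611 (0.595 to 0.628) at 6 months. Utrn fell by 0.84 on the log2 scale in the limma fit (SE 0.21, adjusted p = 0.0403), a call that was lost in 6 of 14 alternatives (adjusted p 0.0189 to 0.715). Among these were the fits without the younger control (0.113), the older control (0.181) and the younger csPIMT-/- library (0.0991). Its transcript is long, at 12382 bases, and with the length trend subtracted the ratios were 0.875 and 0.985. The level of dystrophin RNA relative to utrophin RNA also differed. Per kilobase of transcript, Dmd had 1033 and 1803 normalized counts in the controls against 983 and 1119 for Utrn, but 234 and 352 in the csPIMT-/- libraries against 503 and 684 for Utrn.

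Dag1, which encodes both subunits of dystroglycan from 1 transcript, lies at chr9:108204634-108263958 on the minus strand. It had 14935 and 15074 normalized counts in the controls and 15406 and 19629 in the csPIMT-/- libraries. Its ratio was 1.03 (1.01 to 1.06) at 2 months and 1.30 (1.28 to 1.33) at 6 months. The limma estimate was 0.21 on the log2 scale (SE 0.22, adjusted p = 0.486), and Dag1 was called in none of 14 alternatives (adjusted p 0.0733 to 0.896). On the other side of 1 lay its GC-adjusted ratios, 0.822 and 0.982. In the csPIMT-/- hearts Dag1 made up 36.5% and 39.9% of the summed normalized counts of the 9 genes, against 21.8% and 18.0% in the controls.

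The sarcoglycans are single-pass membrane proteins that assemble as a unit. Of the 3 genes among the members, Sgcb passed the test and Sgca and Sgcd did not. Sgca, for α-sarcoglycan, lies at chr11:94962791-94976327 on the minus strand. It had 3985 and 5516 normalized counts in the controls and 7404 and 7037 in the csPIMT-/- libraries. Both csPIMT-/- values were the higher ones, with a ratio of 1.86 (1.79 to 1.93) at 2 months and 1.28 (1.23 to 1.32) at 6 months. The limma estimate of 0.62 on the log2 scale (SE 0.23, adjusted p = 0.0990) did not pass, and no alternative called Sgca (adjusted p 0.0825 to 0.949). Its GC-adjusted ratio was 1.18 at 2 months and 0.805 at 6 months, so the direction at 6 months turned.

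Sgcb, for β-sarcoglycan, at chr5:73632749-73647790 on the minus strand, went the other way. It had 2354 and 4423 normalized counts in the controls and 1070 and 1594 in the csPIMT-/- libraries, with a ratio of 0.455 (0.421 to 0.491) at 2 months and 0.360 (0.340 to 0.382) at 6 months. Sgcb fell by 1.30 on the log2 scale in the limma fit (SE 0.22, adjusted p = 0.0207), a call that 9 of 14 alternatives kept (adjusted p 0.000397 to 0.439). It was lost without the older control (0.177), the younger csPIMT-/- library (0.141) or the older one (0.0626). The GC-adjusted ratios were 0.866 and 0.783. Within each library Sgcb had 0.591 and 0.802 times the normalized count of Sgca in the controls, against 0.145 and 0.226 times in the csPIMT-/- libraries.

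Sgcd, for δ-sarcoglycan, lies at chr11:46896253-47988969 on the minus strand. It had 2866 and 3448 normalized counts in the controls and 1895 and 1528 in the csPIMT-/- libraries. The ratio was 0.661 (0.622 to 0.703) at 2 months and 0.443 (0.417 to 0.471) at 6 months. The limma estimate of -0.89 on the log2 scale (SE 0.24, adjusted p = 0.0502) stood just outside the threshold, and 8 of 14 alternatives called it lower (adjusted p 0.0251 to 0.181), among them the fit without the younger csPIMT-/- library (0.0473). Sgcd was the gene most sensitive to the GC trend. Its transcript of 38.7% GC gave adjusted ratios of 2.09 and 1.48, whereas its other coding transcript, of 47.1% GC, gave 0.911 and 0.634. The files do not show which transcript these hearts used.

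Promoters of Dag1 and Sgca are shown as those of the pair of genes with ratios above 1, to set beside the promoters of Dmd. Each is the 250 bases before a RefSeq start in GRCm38.p6, for Dag1 the upstream one of 2 whose windows overlap, without capitals because neither holds a CArG box.
Dag1, chr9:108263959-108264208, minus strand: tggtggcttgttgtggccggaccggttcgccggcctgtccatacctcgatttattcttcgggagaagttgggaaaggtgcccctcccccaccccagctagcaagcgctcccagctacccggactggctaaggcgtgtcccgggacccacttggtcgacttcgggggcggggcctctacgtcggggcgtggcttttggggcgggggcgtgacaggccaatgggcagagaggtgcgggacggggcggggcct
Sgca, chr11:94976328-94976577, minus strand: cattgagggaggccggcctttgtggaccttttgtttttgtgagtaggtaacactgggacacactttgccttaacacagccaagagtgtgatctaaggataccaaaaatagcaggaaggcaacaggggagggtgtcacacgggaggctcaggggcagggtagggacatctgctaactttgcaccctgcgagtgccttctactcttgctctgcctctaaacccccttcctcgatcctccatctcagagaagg
The window of Dag1 had 67.6% GC, with 87.1% of promoter windows lower, that of its other start 74.8%, and that of Sgca had 52.8% GC, with 51.1% lower. Neither held a TATAAA, on either strand. Across all genes the ratio ran with the GC content of the transcript and hardly with that of the promoter, as described below.

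Sspn encodes sarcospan, the small membrane protein that joins the sarcoglycans, and lies at chr6:145931641-145965223 on the plus strand. It had 12170 and 11030 normalized counts in the controls and 4565 and 3984 in the csPIMT-/- libraries, so the pools of each genotype lay close together. The ratio was 0.375 (0.362 to 0.389) at 2 months and 0.361 (0.348 to 0.375) at 6 months. Sspn fell by 1.44 on the log2 scale in the limma fit (SE 0.20, adjusted p = 0.0168), and 12 of 14 alternatives kept the call (adjusted p 1.85e-05 to 0.138), also without any 1 library. The GC-adjusted ratios were 0.586 and 0.609.

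The cytoplasmic partners among the members are Sntb1, for β1-syntrophin, an adaptor for signalling proteins, and Dtna, for α-dystrobrevin, which resembles the end of dystrophin and binds syntrophins. Sntb1, at chr15:55636388-55906949 on the minus strand, was the least abundant of the 9 genes per kilobase in every library. It had 1601 and 714.1 normalized counts in the controls and 508.0 and 297.5 in the csPIMT-/- libraries. Its ratio was 0.317 (0.285 to 0.353) at 2 months and 0.417 (0.363 to 0.477) at 6 months. The controls themselves differed by a similar amount, with a ratio of 0.446 (0.410 to 0.485) of 6 over 2 months. Sntb1 fell by 1.46 on the log2 scale in the limma fit (SE 0.27, adjusted p = 0.0236). This call was kept in 7 of 14 alternatives and lost whenever any 1 library was left out, with adjusted p of 0.251 without the younger control, 0.0501 without the older one, 0.0726 without the younger csPIMT-/- library and 0.202 without the older one. Over all alternatives it was 0.000521 to 0.251. The GC-adjusted ratios were 0.514 and 0.737, but 0.198 and 0.257 with its coding transcript of highest GC, 57.5%.

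Dtna had 2939 and 2865 normalized counts in the controls and 1703 and 1359 in the csPIMT-/- libraries. The controls were nearly equal and both csPIMT-/- values lower, with a ratio of 0.579 (0.544 to 0.617) at 2 months and 0.474 (0.444 to 0.506) at 6 months. Dtna fell by 0.93 on the log2 scale in the limma fit (SE 0.22, adjusted p = 0.0356), a call that 8 of 14 alternatives kept (adjusted p 0.0144 to 0.435). It was lost without the younger control (0.123), the older control (0.117) or the older csPIMT-/- library (0.0653). The GC-adjusted ratios were 0.877 and 0.768. At 2 months the ratio turned to 1.02 with GC and length subtracted, and with the coding transcript of lowest GC the adjusted ratios were 1.11 and 1.04.

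**Figure D2:**
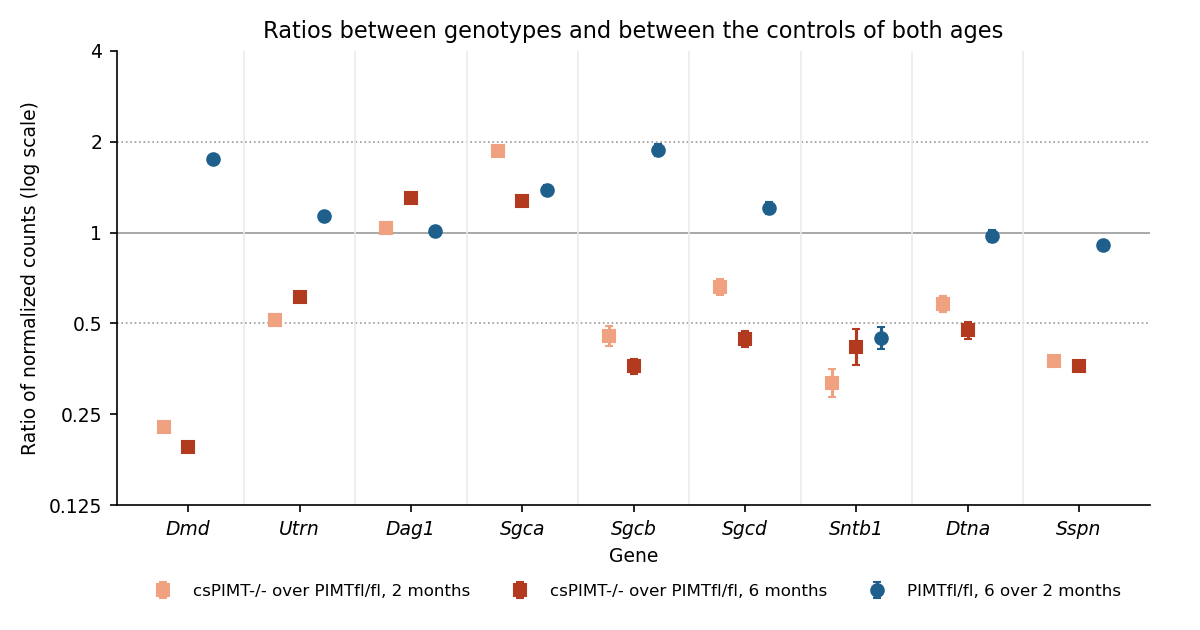
Ratio of normalized counts, on a log axis, for each of the 9 genes. Squares give csPIMT-/- over PIMTfl/fl at 2 months (light) and 6 months (dark), circles the PIMTfl/fl library of 6 months over that of 2 months, and bars the 95% Clopper-Pearson interval of the reads, often smaller than the symbol. Dmd lies at 0.227 and 0.195 while its controls differ by 1.75. For Sntb1 the circle at 0.446 lies just above both squares.

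The pools of each genotype at 2 and 6 months were compared to show how far libraries of 1 genotype differed, although age and mice differ between them together. Between the controls, 1 of the 9 genes (Sntb1, 0.446) lay below 0.5 at 6 over 2 months and none above 2, against 4.65% and 9.01% of all 15132 genes. Dmd and Sgcb were higher in the older controls, with ratios of 1.75 (1.71 to 1.78) and 1.88 (1.79 to 1.97), and their csPIMT-/- libraries showed 1.51 (1.44 to 1.58) and 1.49 (1.37 to 1.62). Between the csPIMT-/- libraries none of the 9 genes passed 2-fold in either direction, where 8.2% of 15057 genes lay below 0.5 and 9.71% above 2. With the control of the other age in place of the matched one, all 9 genes stayed on the same side of 1. The ratio of Dmd was then 0.130 for the csPIMT-/- library of 2 months and 0.341 for that of 6 months, and the ratio of Sntb1 was 0.711 and 0.186.

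Per kilobase of transcript, the order of the genes differed between genotypes. In the control of 2 months Sspn, Dag1 and Sgca led with 2697, 2638 and 2311 normalized counts per kilobase, and Sntb1 was last with 325. In the csPIMT-/- library of 2 months Sgca led with 4294, ahead of Dag1 with 2721 and Sspn with 1012. Dmd had rank 5 of 9 in the control of 2 months and rank 4 in that of 6 months, but ranks 8 and 7 in the csPIMT-/- libraries. With 1 library per group, no spread is known by which neighbours in this order could be told apart.

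Across all genes, a transcript richer in GC went with a higher ratio of csPIMT-/- over control. Spearman's rho was 0.594 over 14972 genes at 2 months and 0.620 over 15037 genes at 6 months, as a description, since the genes share the same 2 libraries at each age. With promoter GC it was -0.072 and 0.0098, and with transcript length -0.305 and -0.233. Between the controls of both ages rho with transcript GC was -0.277. Genes below 42% GC had a median ratio of 0.346 at 2 months and 0.319 at 6 months, and genes above 54% had 1.63 at both ages. The 9 genes followed the same order, with a rho of 0.583 at 2 months and 0.800 at 6 months over 9 points. Dmd (41.5% GC) and Sgcd (38.7%) had the transcripts poorest in GC, and Dag1 (52.8%) and Sgca (56.7%), the 2 genes above 1, had the richest. Whether the trend arose in the hearts or in the libraries was not tested.

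The 9 genes were then set beside other genes of nearly the same GC content, in bins of 2 percent. At 2 months 5 of the 9 genes lay within the interquartile range of the ratio in their bin of GC content, 3 lay below it (Dmd, Sntb1 and Sspn) and 1 above it (Sgcd). At 6 months 8 lay within it and only Dmd below. Of the 842 other genes with 40 to 42% GC, 18.9% had a lower ratio than Dmd at 2 months, and of 841 such genes 19.0% at 6 months. Against all genes compared, only 4.88% and 5.12% were lower than Dmd.

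**Figure D3:**
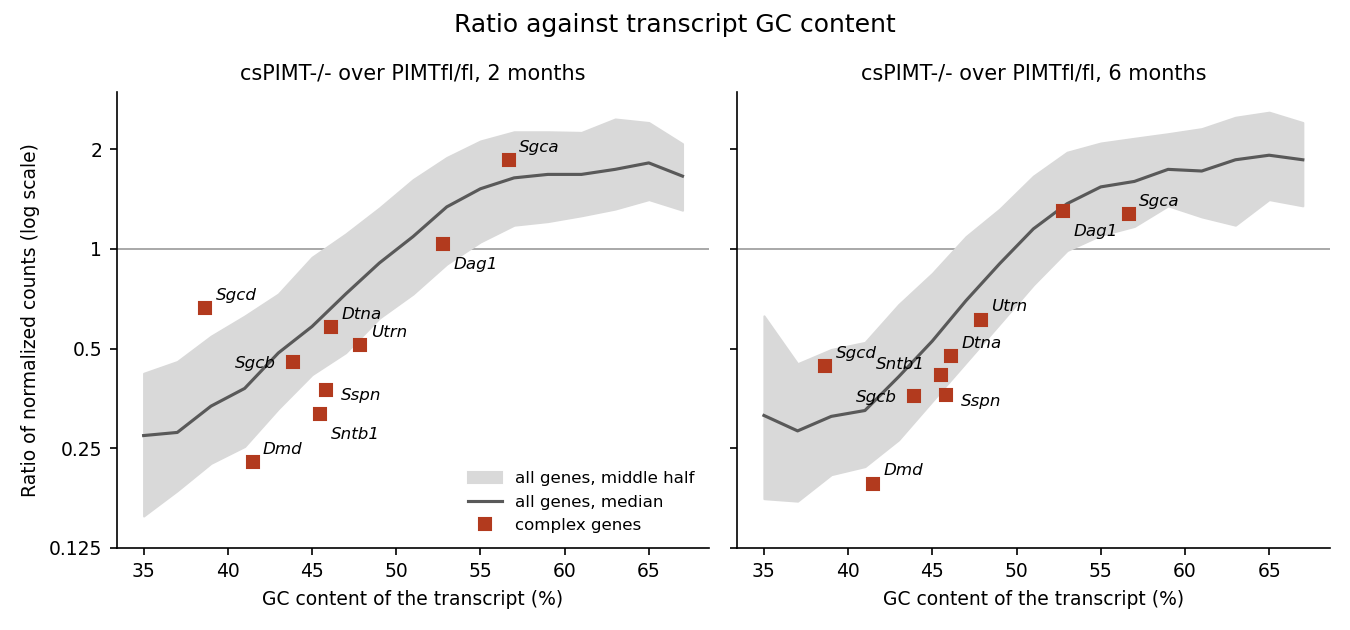
Ratio of csPIMT-/- over PIMTfl/fl on a log axis against the GC content of the transcript in percent, at 2 months (left) and 6 months (right). The line is the median and the band the interquartile range of all genes in bins of 2 percent, and squares are the 9 genes of the complex. The squares climb with the band, with Dmd below it at both ages and Sgcd above it at 2 months.

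After subtraction of the GC trend none of the 9 genes lay below 0.5 at either age, where 10.9% of all genes did at 2 months and 12.7% at 6 months. Sgcd alone lay above 2 at 2 months, and none at 6 months, where 14.5% and 13.6% of all genes stood. Dmd, Utrn, Sgcb, Sntb1 and Sspn stayed below 1 at both ages in each of the adjustments for GC, for length and for both, with Dmd between 0.328 and 0.670. Which coding transcript is used for the GC content also mattered. With the Dmd transcript of highest GC, 48.6%, the adjusted ratios were 0.268 and 0.230, and with the Utrn transcript of lowest GC, 45.8%, the adjusted ratio at 6 months was 1.035.

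**Figure D4:**
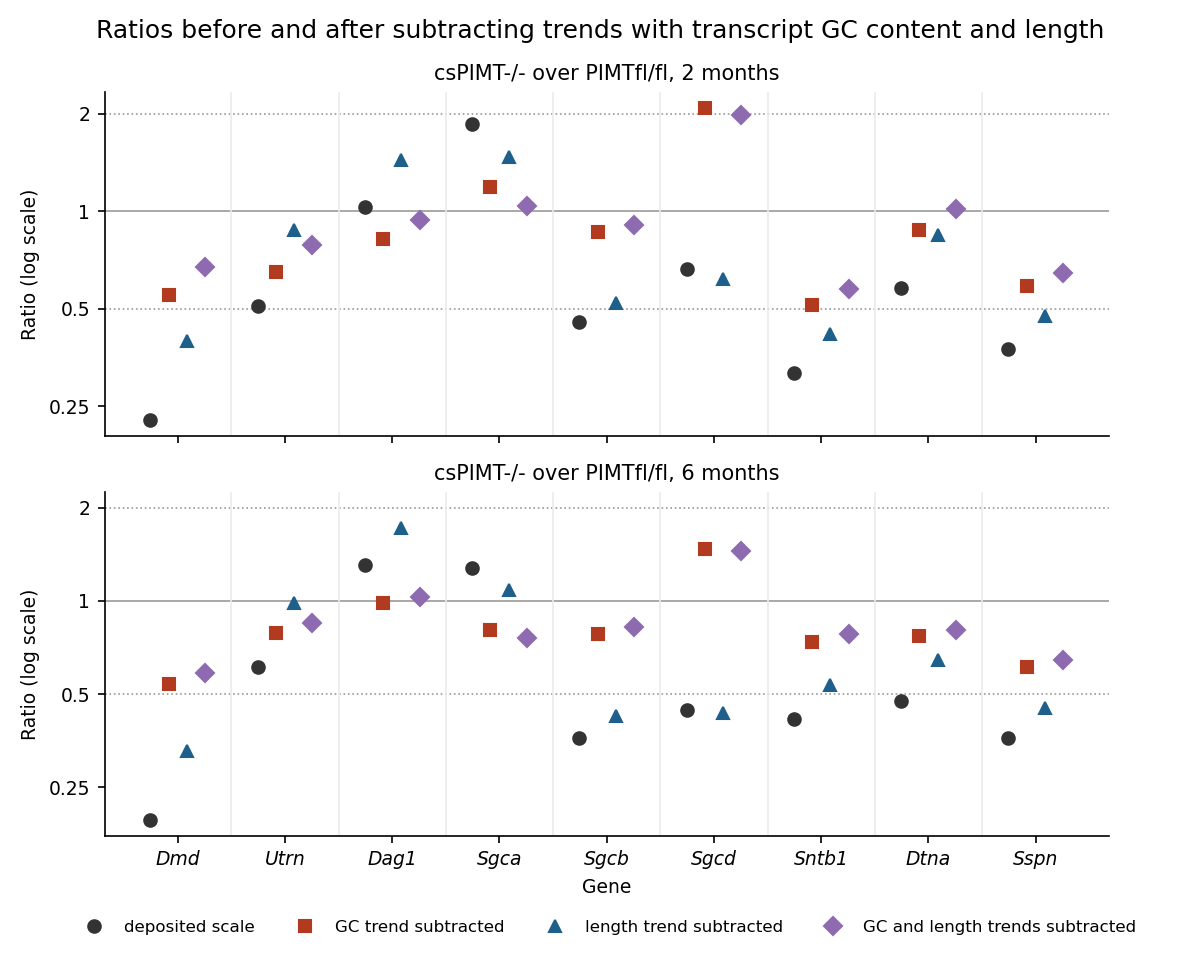
Ratio of csPIMT-/- over PIMTfl/fl on a log axis for each of the 9 genes at 2 months (top) and 6 months (bottom). Circles are the deposited scale, squares the ratio after the GC trend was subtracted, triangles after the length trend and diamonds after both. Dmd moves from 0.227 to between 0.397 and 0.670 at 2 months, and Sgcd crosses 1 with the GC trend subtracted.

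Of 9 further subunits and partners of the complex, 7 had enough reads to compare. None lay below 0.5, and 2 lay above 2 at each age. The median ratio was 1.57 at 2 months and 1.28 at 6 months. Limma called 1 of the 7 higher and none lower. Sgce, for ε-sarcoglycan, had 952.7 and 756.4 normalized counts in the controls and 785.4 and 681.4 in the csPIMT-/- libraries, with ratios of 0.824 (0.747 to 0.910) and 0.901 (0.813 to 0.999), and was not called (adjusted p = 0.525). With the GC trend subtracted both ratios of Sgce turned to above 1, at 1.24 and 1.44.

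Dtnb, for β-dystrobrevin, had 232.8 and 284.1 normalized counts in the controls and 564.7 and 496.2 in the csPIMT-/- libraries (adjusted p = 0.0602). Sntb2, for β2-syntrophin, had 2049 and 1539 in the controls and 1238 and 1978 in the csPIMT-/- libraries, a ratio of 0.604 (0.561 to 0.651) at 2 months and 1.28 (1.20 to 1.37) at 6 months. The γ-syntrophin genes Sntg1 and Sntg2 were scarce, with 22.5 to 102 and 23.4 to 43.7 normalized counts. Sgcz and Nos1 stayed under 10 reads in every library and were not compared. Nos1, for the neuronal nitric oxide synthase that binds syntrophin in skeletal muscle, had 3, 4, 7 and 1 reads.

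Dystroglycan binds laminin only when its sugar chains are complete, and 17 of 18 genes of that glycosylation pathway could be compared. Their median ratio was 1.23 at both ages. Limma called 2 of 17 lower and 1 higher. B3galnt2, for a glycosyltransferase that extends the sugar chain, had ratios of 0.589 and 0.359 and fell by 1.12 on the log2 scale (SE 0.29, adjusted p = 0.0455). Dpm3, for a subunit of dolichol phosphate mannose synthase, had ratios of 2.55 and 2.26 and rose by 1.26 (SE 0.22, adjusted p = 0.0226). After GC adjustment the ratios were 0.882 and 0.573 for B3galnt2 and 1.84 and 1.57 for Dpm3, and neither was called.

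Of 10 laminins and other matrix partners, 1 was called lower and 2 higher, and the median ratio was 0.771 at 2 months and 1.44 at 6 months. Lama4, for the laminin α4 chain of vessel and muscle basement membranes, had ratios of 0.597 and 0.599 and fell by 0.74 (SE 0.20, adjusted p = 0.0495). Bgn, for the matrix proteoglycan biglycan, which binds α-dystroglycan and sarcoglycans, rose by 1.71 (SE 0.20, adjusted p = 0.0163) and had 5547 and 10484 normalized counts in the controls and 18590 and 33643 in the csPIMT-/- libraries. After GC adjustment the ratios were 0.612 and 0.595 for Lama4 and 2.74 and 2.48 for Bgn, and neither was called. The summed level of 6 fibroblast markers, cells that make biglycan, was 259093 and 134409 in the controls and 184886 and 188027 in the csPIMT-/- libraries, and none of the 6 was called. At 2 months 3 of the 6 had ratios below 1 and 3 above, while at 6 months all 6 lay above 1, with a median of 1.92. Between the controls all 6 were lower at 6 than at 2 months.

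Of 13 genes of caveolae and membrane repair, 2 were called lower and 3 higher, with median ratios of 1.13 and 1.35. Cav1, for caveolin 1, which is abundant in endothelium, had ratios of 0.298 and 0.207 and fell by 2.01 (SE 0.23, adjusted p = 0.0163). Cav3, the caveolin of muscle that binds dystroglycan, had ratios of 1.12 and 1.35 and was not called (adjusted p = 0.306). Cavin3, listed as Prkcdbp, had ratios of 2.71 and 2.15 and rose by 1.27 (SE 0.22, adjusted p = 0.0215). After GC adjustment the ratios were 0.649 and 0.519 for Cav1, 0.716 and 0.854 for Cav3 and 1.74 and 1.36 for Cavin3. None was then called. The summed level of 5 endothelial markers was 57863 and 41112 in the controls and 37296 and 42089 in the csPIMT-/- libraries, and 2 of the 5 were called lower.

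Of 12 genes that anchor the complex to the cytoskeleton, 1 was called lower and 3 higher, with median ratios of 1.65 and 1.21. Ank2, for ankyrin B, which helps to place dystrophin at the membrane, had ratios of 0.545 and 0.291 and fell by 1.33 (SE 0.28, adjusted p = 0.0303). Krt8, for keratin 8, had 37.2 and 29.0 normalized counts in the controls and 434 and 312 in the csPIMT-/- libraries and rose by 3.45 (SE 0.40, adjusted p = 0.0163). After GC adjustment the ratios were 0.607 and 0.320 for Ank2 and 7.28 and 6.61 for Krt8, and neither was called. Of these 4 lists and the other subunits together, no list had a median ratio as low as that of the 9 genes on the deposited scale. With the GC trend subtracted the medians at 2 and 6 months were 0.822 and 0.783 for the 9 genes, 1.24 and 1.85 for the other subunits, 1.26 and 0.915 for glycosylation, 0.624 and 0.9498 for the matrix partners, 1.07 and 0.943 for caveolae and repair and 1.21 and 0.947 for the anchors. The matrix partners then had the lowest median at 2 months. No test was made of the difference between lists.

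**Figure D5:**
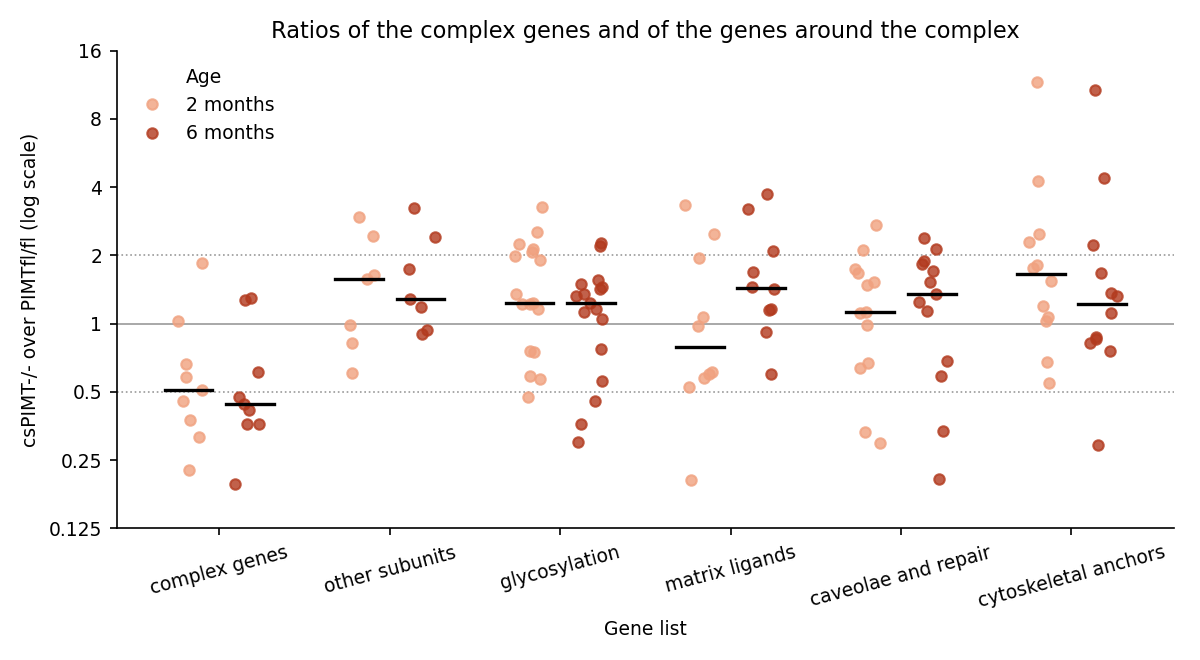
Ratio of csPIMT-/- over PIMTfl/fl on a log axis for the 9 genes and for 5 lists of genes around the complex, at 2 months (light) and 6 months (dark). Each point is a gene and each black bar the median of its list. The 9 genes have medians of 0.511 and 0.443, and the other subunits 1.57 and 1.28.

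The genes whose pattern over the 4 libraries was most like that of Dmd were Smc3, Tceb1, Bod1l, Zfp68 and Cd2ap. Likeness was the distance between the 4 log2 values after each gene's mean was subtracted, among 10892 genes with at least 100 normalized counts in every library. Smc3, the closest, had 1410 and 2647 normalized counts in the controls and 344 and 506 in the csPIMT-/- libraries. The GC content of these 5 transcripts was 38.2 to 45.4%. Of the complex, Sgcb was closest to Dmd at rank 918, followed by Sspn at rank 1420 and Utrn at rank 2171, while Sgca stood at rank 7668.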

How the data were processed

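RNA of 5 hearts per group was pooled, enriched for polyadenylated RNA and sequenced as single-end, strand-specific libraries. The authors trimmed and filtered the reads, aligned them to mm10 with STAR and counted them per gene with htseq-count (HTSeq 0.6.1p1, per the submitters' processing notes) and a UCSC annotation. They deposited DESeq2-normalized counts, a signal that is neither raw nor scaled to a fixed total, and 1 of 4 columns is headed as read counts but holds the same kind of value. All deposited values (100%) were whole multiples of the smallest one (tolerance 0.001 reads), which gave back whole reads. A single read was worth 0.865 and 0.879 normalized counts in the younger and older control, and 1.23 and 1.04 in the csPIMT-/- pools.

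Ratios were computed on the deposited scale where either library of the pair had 10 reads or more, with 95% Clopper-Pearson intervals of the reads (SciPy 1.17.1). Log2 ratios and list medians used a pseudocount of 0.5 reads. The only test was limma 3.58.1 on log2(normalized count + 1) with genotype, age and a mean trend of the variance, on genes that reached 10 normalized counts in 2 or more libraries and 15 in total, with Benjamini-Hochberg adjustment over all genes tested. Its fold changes are on that log2 scale. Its p-values set the genotype effect against the departure of 4 pools from additivity, with variance borrowed from other genes. That departure stood in for replicate error, and no spread between pools of 1 group was measured. The 14 alternatives included fits that left out 1 library, made without the age term. edgeR 4.0.16 and DESeq2 1.42.0 were run on the recovered reads as alternatives. The main limma fit was tested on simulated counts that held no age effect and no GC trend. GC content and length were those of the longest coding transcript in GENCODE M21 (GRCm38), matched for 97.9% of genes by symbol or synonym, and trends were lowess curves of span 0.3. Promoter windows came from RefSeq (GRCm38.p6), which gave no row for Sntb1 and Dtna. Named outside the 9 genes were the other subunits, the targeted gene, the 5 genes most like Dmd and, of each further list, the genes of lowest and highest mean log2 ratio over both ages among those with at least 100 reads in 1 library. Some genes that this rule names are not reported here. B3galnt2 and Cav3 were named after their values were seen, as were the sex-linked genes. The 9 genes and the lists were chosen with earlier results of these data known. Reads shared with paralogs could not be split, and no sequencing batch or date is given in the sources used here.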

Additional observations from a re-analysis of the deposited data

Results flagged for a closer look

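Sntb2, the gene for β2-syntrophin, had a ratio below 1 at 2 months and above 1 at 6 months, with both counting intervals clear of 1. The ratio of csPIMT-/- over PIMTfl/fl was 0.604 at 2 months and 1.28 at 6 months (1.285 before rounding). Each direction rests on 1 library per group, and the difference between the ages was not tested. Between the csPIMT-/- libraries Sntb2 was 1.598 times as high at 6 as at 2 months, and between the controls the ratio was 0.751. With the GC trend alone subtracted the ratios stayed on opposite sides of 1, at 0.923 at 2 months and 2.11 at 6 months. With the length trend subtracted the ratio at 2 months was 1.001, and with GC and length 1.11, so its direction turned in these 2 settings. Genes of the other lists also changed sides, such as Lamc1, for the laminin γ1 chain, with 0.610 and 1.15, named here after its values were seen.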

How the results depend on the processing

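For the 9 genes the median log2 ratio was -0.97 at 2 and -1.17 at 6 months. It became -0.86 and -0.91 against the control of the other age, -0.28 and -0.35 with the GC trend subtracted, -0.70 and -0.91 with the length trend and -0.14 and -0.31 with both. Over all genes, those below 0.5 numbered 3405 at 2 months and 3794 at 6 months, which fell to 1635 and 1912 with the GC trend subtracted and to 1544 and 1896 with GC and length. A filter of 100 reads took those above 2 at 2 months from 2616 to 1724. Limma called 2595 genes lower and 1637 higher, but 0 lower and 0 higher with the GC trend subtracted (1685 and 1868 at an unadjusted p below 0.05) or without the mean trend (3448 and 2517), where edgeR called 2521 and 1637 and DESeq2 2988 and 2190. Leaving out 1 library gave 366 to 1882 lower and 274 to 1082 higher, least without the older control for lower (366) and without the younger control for higher (274). With the GC trend subtracted the limma estimates of Dag1 (-0.14, adjusted p = 0.696), Sgca (-0.029, 0.949) and Sgcd (0.80, 0.152) turned in sign. The ratio of Sgcd at 6 months turned to 1.48, and to 1.45 with GC and length, and that of Dtna to 1.11 at 2 and 1.04 at 6 months with its coding transcript of lowest GC, and to 1.02 at 2 months with GC and length. The cause of these changes was not tested. Of 126 alternative estimates of the genotype effect of the 9 genes, 87 kept their direction and side of the threshold, 28 lost the call and 8 gained it. The adjustment for GC and length together, the fits without the age term and the choice of transcript were added after the data had been seen. With 1 pool of 5 hearts per group, counting error of the members was small and the spread between pools unknown.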
